A study of Mus musculus with 18 samples.

Results

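Lung RNA of irradiated and untreated mice was examined for 10 genes that respond to glucocorticoid hormone or that carry the hormone's signal: Fkbp5, Tsc22d3, Zbtb16, Klf9, Sgk1, Dusp1, Pdk4, the metallothioneins Mt1 and Mt2, and Nr3c1, which encodes the glucocorticoid receptor. They were taken as the probe sets that the platform annotation assigns to one of these genes alone. The 10 genes are among 18193 that the annotation names in this way, and they hold 29 probe sets. Of these, 25 passed the filter on dim probe sets, and each of the 10 genes kept at least 1.

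The series compares untreated and irradiated lung in the inbred mouse strains C57BL/6J, A/J and C3H/HeJ by single-colour microarray. Each of the 6 groups has 3 arrays. At the age of 8 weeks the irradiated mice received 18 Gy of caesium gamma rays to the whole chest, with lead over the rest of the body, and were killed once they were moribund, judged by weight loss, ruffled fur, fast breathing and a hunched posture. They were 20 to 22 weeks old in C3H/HeJ, 28 to 30 in C57BL/6J and 30 to 32 in A/J, which is 12 to 14, 20 to 22 and 22 to 24 weeks after exposure, and untreated mice of every strain were 15 to 26 weeks old. Irradiation, time since exposure and the moribund state with its weight loss go together in each strain and cannot be told apart here, and the irradiated A/J and C57BL/6J mice were also older than their controls. The labels call the irradiated samples separate moribund mice, but say of the controls only that they are 3 samples, so that p-values may rest on technical spread on that side. The time of day at which lungs were taken is not given in the sources used here.

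Glucocorticoids are adrenal steroid hormones whose blood level follows the time of day and rises with stress and illness. In the cell the hormone binds its receptor, which leaves a complex of heat shock proteins and co-chaperones, enters the nucleus and activates genes through glucocorticoid response elements. Lung is one of the tissues that depend on this hormone, for its maturation before birth and for restraint of inflammation later. Metallothioneins are small cysteine-rich proteins that bind zinc and copper, and their genes respond to metals through metal response elements as well as to glucocorticoids and to inflammatory signals.

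Promoter sequences from RefSeq (build GRCm38.p6, from 250 bases before to 50 after a start site) were on hand for 8 of the 10 genes, in 15 windows. Both strands were searched for the full glucocorticoid response element, written as AGAACA, any 3 bases and TGTTCT, for one arm of it alone (AGAACA, or TGTTCT on the other strand), and for the core of the metal response element, written as TGCACNC or TGCGCNC. The 3 windows with the full element or with several metal response cores are shown, with these matches in capitals, on the plus strand and 5′ to 3′. The window of Sgk1 lies at chr10:21993640-21993889, that of Mt1 at chr8:94178839-94179118 and that of Mt2 at chr8:94172368-94172647. The Sgk1 sequence ends at the base before the start site and the metallothionein sequences run 30 bases past it.
Sgk1: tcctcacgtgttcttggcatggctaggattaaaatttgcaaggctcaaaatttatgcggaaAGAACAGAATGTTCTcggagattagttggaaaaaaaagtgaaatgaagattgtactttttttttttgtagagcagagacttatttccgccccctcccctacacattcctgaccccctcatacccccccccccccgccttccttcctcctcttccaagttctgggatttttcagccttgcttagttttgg
Mt1: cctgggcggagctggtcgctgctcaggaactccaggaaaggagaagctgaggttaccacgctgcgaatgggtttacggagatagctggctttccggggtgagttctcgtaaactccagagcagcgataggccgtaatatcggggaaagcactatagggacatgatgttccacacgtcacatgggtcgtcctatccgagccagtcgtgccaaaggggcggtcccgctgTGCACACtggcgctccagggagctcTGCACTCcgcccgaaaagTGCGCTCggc
Mt2: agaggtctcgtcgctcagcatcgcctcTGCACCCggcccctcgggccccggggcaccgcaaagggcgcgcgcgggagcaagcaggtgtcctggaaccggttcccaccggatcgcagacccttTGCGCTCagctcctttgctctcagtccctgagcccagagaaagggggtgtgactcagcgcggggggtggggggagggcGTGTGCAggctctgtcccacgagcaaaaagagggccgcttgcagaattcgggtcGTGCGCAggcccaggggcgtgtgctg
The full element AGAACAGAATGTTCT lies from -189 to -175 of this Sgk1 start site. It occurs in 1 of the 15 windows of these genes and in 3 of all 32851 windows of the table (0.00913%). One arm alone occurs in 4 of the 15 windows, of Sgk1 and Tsc22d3, and in 19% of all windows, and every full element also counts as 2 single arms. The metal response core occurs 3 times in the Mt1 window and 4 times in the Mt2 window, and 1 time each in a window of Sgk1 and of Dusp1. Of all windows, 25.7% hold at least 1 core and 7.11% hold 2 or more. A match is a run of letters and not a measured binding site.

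Several arrays stood apart. Trimmed mean signals ranged from 46.3 to 176 over the 18 arrays, and without scaling all genes had a median log2 difference of 0.56 in A/J, 0.61 in C3H/HeJ and 0.06 in C57BL/6J, so that levels below are quantile-normalized log2(signal + 7) and differences are relative to that shift. For actin, the signal at the 5' end relative to the 3' end, which falls when RNA is degraded, was 0.413 to 0.551 in irradiated A/J lung and 0.677 to 0.766 in the arrays of the other 5 groups. Krt4, a keratin of squamous epithelium that lung does not make in quantity, read 11.52 and 11.75 in untreated C57BL/6J arrays 1 and 3 and 10.91 in irradiated A/J array 3, and skeletal muscle markers were high in the same 3 arrays. At 34 probe sets that separate untreated A/J from untreated C3H/HeJ, irradiated C3H/HeJ array 3 lay at a median position of 0.52 between A/J (0) and C3H/HeJ (1), where the other irradiated C3H/HeJ arrays lay at 0.97 and 0.96. The summed signal of 13 measured lung epithelial markers was 49700 to 55500 in all 18 arrays, so that the epithelial markers of the labelled tissue were present throughout.

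In irradiated A/J lung 7 of the 10 genes were higher than in untreated A/J lung, and 0 were lower, by the limma fit over 12412 genes with an adjusted p below 0.05. At an unadjusted p below 0.05 these counts were 8 and 1. Over all genes tested, 15.1% were called higher and 8.95% lower in that comparison. In C3H/HeJ 7 were higher and 1 was lower, against 12.8% and 10.6% of all genes. In C57BL/6J 3 were higher and 0 lower (5 and 0 at an unadjusted p below 0.05), against 2.99% and 2.36% of all genes, or 5.35% in either direction. The median difference of the 10 genes was 1.23 in A/J, 1.01 in C3H/HeJ and 0.50 in C57BL/6J on the log2 scale, and that of all genes was 0.09, 0.01 and -0.01. Irradiated and untreated arrays did not overlap for 9 of the 10 genes in A/J (8 higher, 1 lower) and for 9 in C3H/HeJ (8 and 1), as held for 40.4% and 40.3% of all genes in either direction, and for 3 in C57BL/6J (24.3%). The 3 genes called higher in every strain were Fkbp5, Mt1 and Mt2, and 1.63% of all genes were called higher in all 3 strains. In C57BL/6J the calls of Mt1 and Mt2 depended on single arrays, and all 3 calls depended on the spread estimated from all 6 groups. Leaving out the 3 keratin-rich arrays leaves a single untreated C57BL/6J array that is taken to vary like the other groups. It gave smaller C57BL/6J rises of Fkbp5, Mt1 and Mt2, listed below. Without irradiated C57BL/6J array 1 the calls of Mt1 and Mt2 were lost. A limma fit on the C57BL/6J arrays alone called 0 of the 10 (5 at an unadjusted p below 0.05). Without irradiated A/J array 1, the one with the lowest actin ratio, the same number of 7 was called in A/J (Fkbp5 2.28, Mt2 2.32). The remaining irradiated A/J arrays (0.551 and 0.528) also lay below all arrays of the other groups in that ratio. RNA quality and irradiation can thus not be told apart in A/J, and the part of RNA quality was not tested. Without irradiated C3H/HeJ array 3 the 7 genes were called higher as before (Fkbp5 2.04, Mt2 2.89, Sgk1 0.69).

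**Figure D1:**
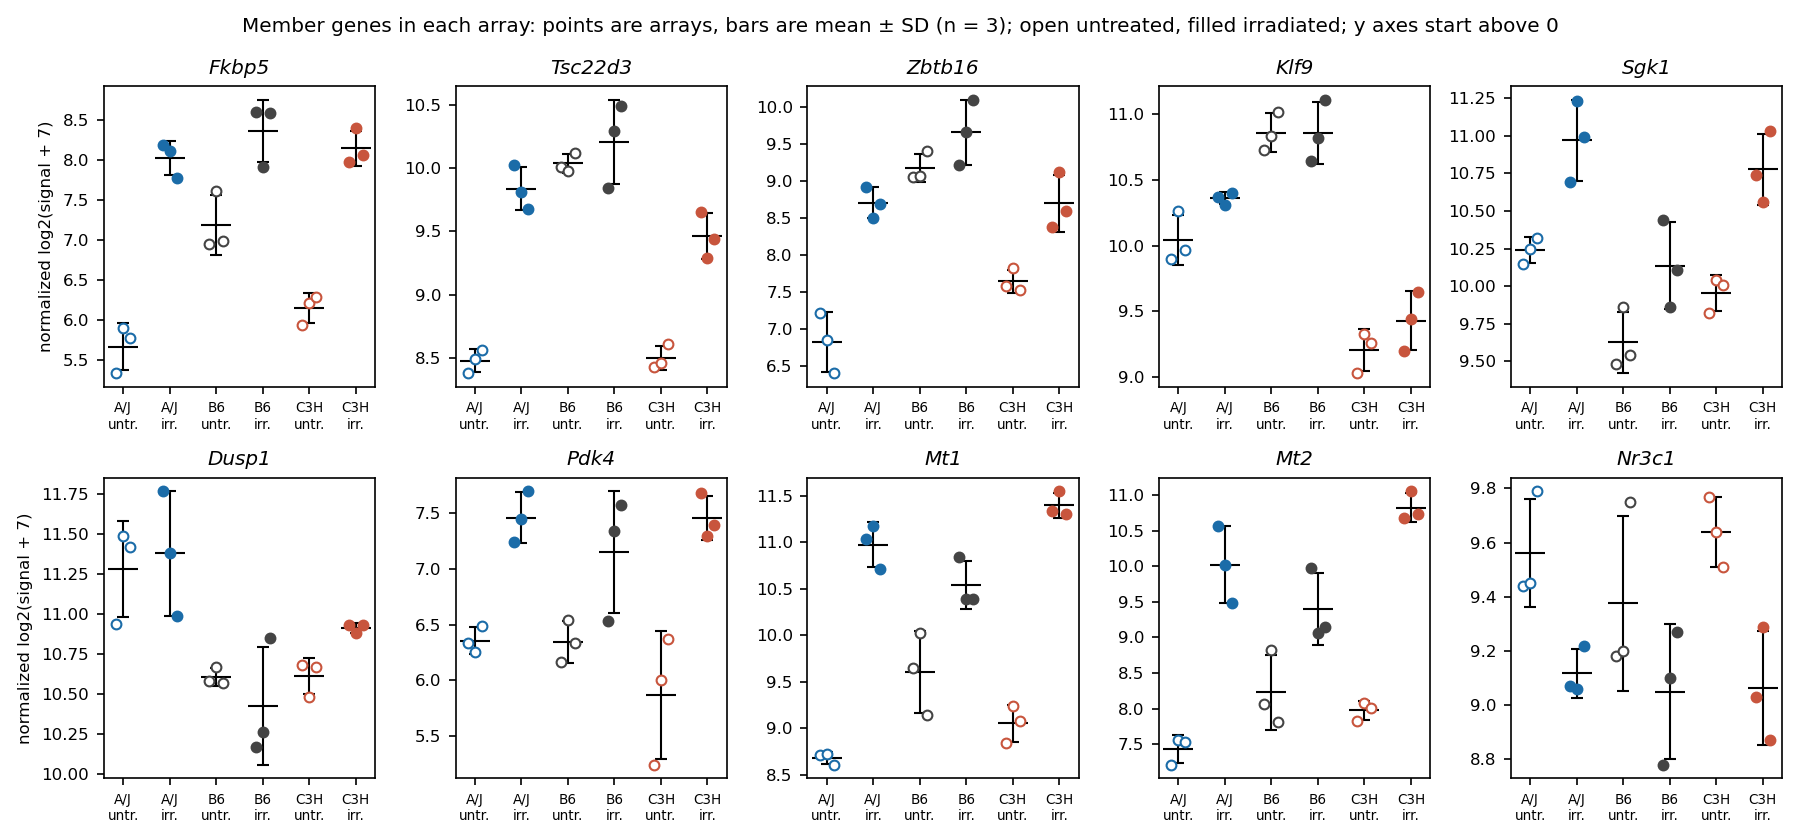
Normalized log2(signal + 7) of the 10 genes in each of the 18 arrays (y axis, 1 panel a gene, axes not starting at 0) by strain and treatment (x axis), with points for arrays and bars for mean ± SD (n = 3). Fkbp5, Mt1 and Mt2 were higher in irradiated lung of all 3 strains, while untreated C57BL/6J lung already stood above the other untreated groups in Fkbp5, Tsc22d3, Zbtb16 and Klf9.

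Fkbp5 encodes a co-chaperone that holds the receptor in a state of low hormone affinity and is itself strongly induced by glucocorticoids, which closes a feedback loop. Its level was 5.33, 5.89 and 5.77 in untreated A/J lung and 8.19, 8.11 and 7.78 in irradiated A/J lung. In C3H/HeJ it was 5.93, 6.21 and 6.29 untreated and 7.98, 8.40 and 8.07 irradiated. In C57BL/6J it was 6.95, 7.62 and 6.99 untreated and 8.60, 7.92 and 8.59 irradiated. Irradiated and untreated arrays did not overlap in any strain, and the untreated C57BL/6J arrays all lay above the untreated arrays of the other strains. The rise was 2.36 ± 0.22 (SE, 5.14-fold, 3 arrays against 3, limma adjusted p = 3.82e-06) in A/J, 2.01 ± 0.22 (4.01-fold, adjusted p = 1.84e-05) in C3H/HeJ and 1.18 ± 0.22 (2.27-fold, adjusted p = 0.00649) in C57BL/6J. Without the 3 keratin-rich arrays the C57BL/6J value was 0.75 ± 0.28 (adjusted p = 0.408), and the A/J value was 2.49 ± 0.22. A further Fkbp5 probe set, 1448231_at, gave 1.84 in A/J, 1.79 in C3H/HeJ and 0.98 in C57BL/6J, of which the C57BL/6J value was not called (adjusted p = 0.0507 over 25746 probe sets). After irradiation the 3 strains reached 8.03 ± 0.22 (SD, n = 3), 8.15 ± 0.22 and 8.37 ± 0.39 in A/J, C3H/HeJ and C57BL/6J, and none of these levels differed by the limma test (adjusted p 0.298 to 0.783).

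Tsc22d3 encodes GILZ, a leucine zipper protein that carries part of the anti-inflammatory action of glucocorticoids. It read 8.38, 8.49 and 8.56 in untreated A/J lung and 10.02, 9.81 and 9.68 in irradiated A/J lung. In C3H/HeJ it read 8.43, 8.46 and 8.61 untreated and 9.65, 9.29 and 9.44 irradiated. In C57BL/6J the untreated arrays read 10.01, 9.98 and 10.12, above every untreated array of the other strains, and the irradiated arrays read 9.84, 10.29 and 10.49 and overlapped with them. Tsc22d3 rose by 1.36 ± 0.15 (2.56-fold, adjusted p = 1.59e-05) in A/J and by 0.96 ± 0.15 (1.94-fold, adjusted p = 0.000295) in C3H/HeJ, and its difference in C57BL/6J was 0.17 ± 0.15 (95% interval -0.14 to 0.49, adjusted p = 0.569). Probe set 1425281_a_at was also called higher in A/J (0.74) and C3H/HeJ (0.81), and 1425557_x_at was called in no strain. Over all 25746 kept probe sets, 11.6% were called higher in A/J and 9.65% in C3H/HeJ.

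Zbtb16, which encodes the zinc finger repressor PLZF and is a frequently used readout of receptor activity, followed Tsc22d3. Its arrays read 7.21, 6.85 and 6.40 untreated and 8.92, 8.50 and 8.69 irradiated in A/J. They read 7.58, 7.82 and 7.52 untreated and 8.38, 9.12 and 8.59 irradiated in C3H/HeJ, and 9.06, 9.07 and 9.40 untreated and 9.22, 9.66 and 10.10 irradiated in C57BL/6J. The groups did not overlap in A/J and C3H/HeJ and overlapped in C57BL/6J, where untreated lung was already above irradiated A/J lung in all 3 arrays. Zbtb16 rose by 1.88 ± 0.24 (3.69-fold, adjusted p = 5.3e-05) in A/J and by 1.06 ± 0.24 (2.08-fold, adjusted p = 0.00476) in C3H/HeJ, against 0.48 ± 0.24 (adjusted p = 0.276) in C57BL/6J. The further sets 1419874_x_at and 1427638_at, above the overall median on 14 and 11 of the 18 arrays, gave 2.06 and 0.98 in A/J and 1.21 and 0.10 in C3H/HeJ.

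Over the 18 arrays, Tsc22d3 and Zbtb16 were each other's nearest gene among the 10, with a root mean square difference of 0.44 between their mean-centred profiles. This is a description of 18 arrays that share 6 groups. Among all genes tested, the 3 profiles nearest to Tsc22d3 were those of Mief2 (0.30), Sphk1 (0.31) and Mbd1 (0.31), and those nearest to Fkbp5 were Aoc1 (0.39), C1qtnf1 (0.40) and Arg2 (0.41).

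Klf9, a Krüppel-like transcription factor induced by both glucocorticoid and thyroid hormone, was set apart by strain rather than by irradiation. It read 9.90, 10.26 and 9.97 in untreated and 10.37, 10.31 and 10.40 in irradiated A/J lung, a difference of 0.31 ± 0.15 (adjusted p = 0.136). Untreated and irradiated C57BL/6J arrays read 10.73 to 11.02 and 10.64 to 11.11, and those of C3H/HeJ read 9.03 to 9.33 and 9.20 to 9.65. The differences in C57BL/6J (-0.01) and C3H/HeJ (0.22) were not called, and the C57BL/6J difference turned positive without scaling (0.09), with median centring (0.04) and without the keratin-rich arrays (0.02). Median centring made the A/J difference a call (0.66, adjusted p = 0.0118) and, like no scaling, also that of C3H/HeJ (0.59 and 0.96), with the median of all genes then at 0.33, 0.24 and 0.61. Its probe sets disagreed in A/J: 1428289_at (0.68) and 1456341_a_at (0.43) were called higher, the dim 1436952_at, above the overall median on 8 of the 18 arrays, was called lower (-0.90, adjusted p = 0.0447), and the other 3 kept sets were not called. Of all 25746 kept probe sets, 11.6% were called higher and 13.6% lower in A/J.

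Sgk1 encodes a kinase that raises sodium uptake through the epithelial sodium channel and thereby the clearance of lung fluid. Its window with the full response element is shown above. It read 10.15, 10.25 and 10.32 untreated and 10.69, 11.23 and 10.99 irradiated in A/J, and 9.82, 10.04 and 10.01 untreated and 10.74, 10.56 and 11.03 irradiated in C3H/HeJ. In C57BL/6J it read 9.48, 9.86 and 9.54 untreated and 10.44, 9.86 and 10.11 irradiated. The groups were separate in A/J and C3H/HeJ and reached 9.86 from both sides in C57BL/6J. Sgk1 rose by 0.73 ± 0.17 (1.66-fold, adjusted p = 0.00559) in A/J and by 0.82 ± 0.17 (1.76-fold, adjusted p = 0.00282) in C3H/HeJ, and its difference in C57BL/6J was 0.51 ± 0.17 (adjusted p = 0.0937).

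Dusp1, a phosphatase that switches off p38 and JNK kinases and is induced both by glucocorticoids and as an immediate early gene, was not called in any strain. Its arrays read 10.94, 11.49 and 11.42 untreated and 11.77, 11.38 and 10.99 irradiated in A/J, where the groups overlapped. They also overlapped in C57BL/6J (10.57 to 10.67 untreated and 10.17 to 10.85 irradiated). In C3H/HeJ they did not overlap (10.48 to 10.68 untreated and 10.88 to 10.93 irradiated). The differences were 0.10 ± 0.20 in A/J (95% interval -0.32 to 0.52), -0.18 ± 0.20 in C57BL/6J (-0.60 to 0.24) and 0.30 ± 0.20 in C3H/HeJ (-0.11 to 0.72). In A/J the sign depended on single libraries: the difference was -0.10 without irradiated array 1 and -0.07 without untreated array 1. The C3H/HeJ difference passed the threshold without scaling (1.02, adjusted p = 0.02) and with median centring (0.65, adjusted p = 0.0436), against medians of all genes of 0.61 and 0.24. Of 16 other immediate early genes measured, 1 was called higher and 3 lower in A/J, 6 and 1 in C3H/HeJ, and 0 and 0 in C57BL/6J by limma (0 and 2 at an unadjusted p below 0.05). Of all genes, 15.1% were called higher and 8.95% lower in A/J, and 12.8% and 10.6% in C3H/HeJ. The median difference of the 16 genes was 0.11 in A/J, 0.42 in C3H/HeJ and -0.19 in C57BL/6J, against 0.09, 0.01 and -0.01 over all genes. Jun fell by 1.25 in A/J, and Fos (1.48) and Junb (1.23) were called higher in C3H/HeJ.

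Pdk4 encodes the kinase that shuts down pyruvate dehydrogenase and spares glucose during fasting, under the control of glucocorticoids, PPARs and FOXO factors. It read 6.33, 6.25 and 6.49 untreated and 7.24, 7.45 and 7.70 irradiated in A/J. It read 5.24 to 6.37 untreated, with the widest spread of the untreated groups, and 7.68, 7.30 and 7.40 irradiated in C3H/HeJ, and 6.16, 6.54 and 6.33 untreated and 6.53, 7.34 and 7.58 irradiated in C57BL/6J. Only in C57BL/6J did the groups overlap, by irradiated array 1. Pdk4 rose by 1.11 ± 0.27 (2.15-fold, adjusted p = 0.00734) in A/J and by 1.59 ± 0.27 (3.01-fold, adjusted p = 0.00061) in C3H/HeJ, and its difference in C57BL/6J was 0.80 ± 0.27 (adjusted p = 0.0955). Of 22 other fasting and PPAR target genes measured, 3 were called higher and 3 lower in A/J, 2 and 0 in C57BL/6J (3 and 1 at an unadjusted p below 0.05) and 3 and 5 in C3H/HeJ. Beside these counts, 15.1% of all genes were called higher and 8.95% lower in A/J, and 12.8% and 10.6% in C3H/HeJ. For C57BL/6J these shares were 2.99% and 2.36%. The list's median difference was -0.17 for A/J, -0.13 for C3H/HeJ and 0.08 for C57BL/6J, against 0.09, 0.01 and -0.01 over all genes. Single genes stood out from these medians. Angptl4, an inhibitor of lipoprotein lipase, was called higher in all 3 strains (A/J 0.87, C3H/HeJ 1.38, C57BL/6J 1.18). Cd36, a fatty acid transporter, fell by 1.49 in A/J and by 1.08 in C3H/HeJ.

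The metallothioneins had the largest rises of the 10 genes in C3H/HeJ, and Mt2 had the largest in A/J too. Mt1 read 8.71, 8.72 and 8.61 untreated and 11.04, 11.18 and 10.71 irradiated in A/J, and 8.84, 9.24 and 9.08 untreated and 11.34, 11.55 and 11.30 irradiated in C3H/HeJ. In C57BL/6J it read 9.65, 10.02 and 9.14 untreated and 10.84, 10.39 and 10.39 irradiated. Mt1 rose by 2.29 ± 0.19 (4.9-fold, adjusted p = 1.78e-06) in A/J, by 2.35 ± 0.19 (5.08-fold, adjusted p = 1.69e-06) in C3H/HeJ and by 0.94 ± 0.19 (1.92-fold, adjusted p = 0.0124) in C57BL/6J.

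Mt2 read 7.21, 7.56 and 7.53 untreated and 10.57, 10.02 and 9.49 irradiated in A/J. In C3H/HeJ it read 7.83, 8.08 and 8.01 untreated and 10.68, 11.06 and 10.74 irradiated, and in C57BL/6J 8.06, 8.82 and 7.81 untreated and 9.98, 9.07 and 9.15 irradiated. Irradiated and untreated arrays of Mt1 and Mt2 did not overlap in any strain. Mt2 rose by 2.59 ± 0.29 (6.04-fold, adjusted p = 1.94e-05) in A/J, by 2.85 ± 0.29 (7.22-fold, adjusted p = 1.03e-05) in C3H/HeJ and by 1.17 ± 0.29 (2.25-fold, adjusted p = 0.0278) in C57BL/6J. Without the 3 keratin-rich arrays the C57BL/6J values were 0.52 ± 0.20 for Mt1 (adjusted p = 0.424) and 0.58 ± 0.32 for Mt2 (adjusted p = 0.612). Leaving out irradiated C57BL/6J array 1 or untreated array 3 also ended both C57BL/6J calls, as did untreated array 1 for Mt2.

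The chosen Mt1 probe set, 1422557_s_at, carries the suffix of sets that can match more than 1 transcript. The other Mt1 set, 1451612_at, passed the filter through 6 arrays alone, those of irradiated A/J (deposited signals 39.5 to 100) and irradiated C3H/HeJ (31.7 to 94.3). Its signals were at most 15.3 in every untreated array and at most 10 in irradiated C57BL/6J, so it gives no separate measure of the rise and says nothing of Mt1 in C57BL/6J. Of 21 other metal handling genes measured, 7 were called higher and 0 lower in A/J (9 and 0 at an unadjusted p below 0.05), 4 and 0 in C3H/HeJ (5 and 0) and 2 and 1 in C57BL/6J. Of all genes, 15.1%, 12.8% and 2.99% were called higher in A/J, C3H/HeJ and C57BL/6J. The median difference of the 21 genes was 0.29 in A/J, 0.07 in C3H/HeJ and 0.05 in C57BL/6J, against 0.09, 0.01 and -0.01 over all genes. Slc39a14, a zinc and iron importer induced by interleukin 6, was called higher in all 3 strains (1.46 in A/J, 1.49 in C3H/HeJ and 1.05 in C57BL/6J). The heme oxygenase Hmox1 (1.46 and 2.19) and the iron exporter Slc40a1 (1.17 and 1.48) were called higher in A/J and C3H/HeJ.

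Over the 18 arrays Mt2 lay closest to Serpina3n, an acute-phase protease inhibitor (root mean square difference 0.29), then to Mt1 (0.32) and Cyp7b1 (0.41). Serpina3n rose by 2.79 in A/J, by 1.27 in C57BL/6J and by 3.07 in C3H/HeJ. Of 15 interleukin 6 and acute-phase genes measured, 10 were called higher and 1 lower in A/J, 7 and 1 in C57BL/6J and 11 and 1 in C3H/HeJ. The shares of all genes were 15.1% and 8.95%, 2.99% and 2.36%, and 12.8% and 10.6% in that order. Their median difference was 0.82, 0.60 and 1.73, against 0.09, -0.01 and 0.01 over all genes. Il6 was called higher in A/J and C3H/HeJ, from dim untreated means of 4.04 and 3.28 to 6.47 and 7.67. It was dim in both C57BL/6J groups (3.41 and 3.99, not called). The largest called changes of the list in C57BL/6J were rises of Saa3 (2.01), Orm1 (1.98), Fgg (1.94) and Lcn2 (1.49). The part of these genes in the metallothionein result was not tested.

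Nr3c1, the receptor gene, read 9.44, 9.45 and 9.79 untreated and 9.07, 9.06 and 9.22 irradiated in A/J, without overlap. In C3H/HeJ it read 9.77, 9.64 and 9.51 untreated and 9.03, 9.29 and 8.87 irradiated, also without overlap, and in C57BL/6J the groups overlapped (9.18 to 9.75 and 8.78 to 9.27). It fell by 0.57 ± 0.17 in C3H/HeJ (1.49-fold, adjusted p = 0.0221), while the differences in A/J (-0.44 ± 0.17, adjusted p = 0.0698) and C57BL/6J (-0.33 ± 0.17, adjusted p = 0.294) were not called. The C3H/HeJ call was lost when irradiated array 3, the one in between the strains, was left out (-0.48, adjusted p = 0.0923), and also without irradiated array 1 or without untreated array 1 or 2. The direction depended on the scaling, since without scaling the difference was 0.16 in both A/J and C3H/HeJ, below the median of all genes there. Another probe set, 1460303_at, was called lower in all 3 strains (-0.53, -0.47 and -0.44), and of the other kept sets, 2 that lay above the overall median on all 18 arrays were called lower in A/J. The 3 profiles nearest to Nr3c1 were those of Arhgap31, Antxr2 and Utrn (root mean square differences 0.14 to 0.16).

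**Figure D2:**
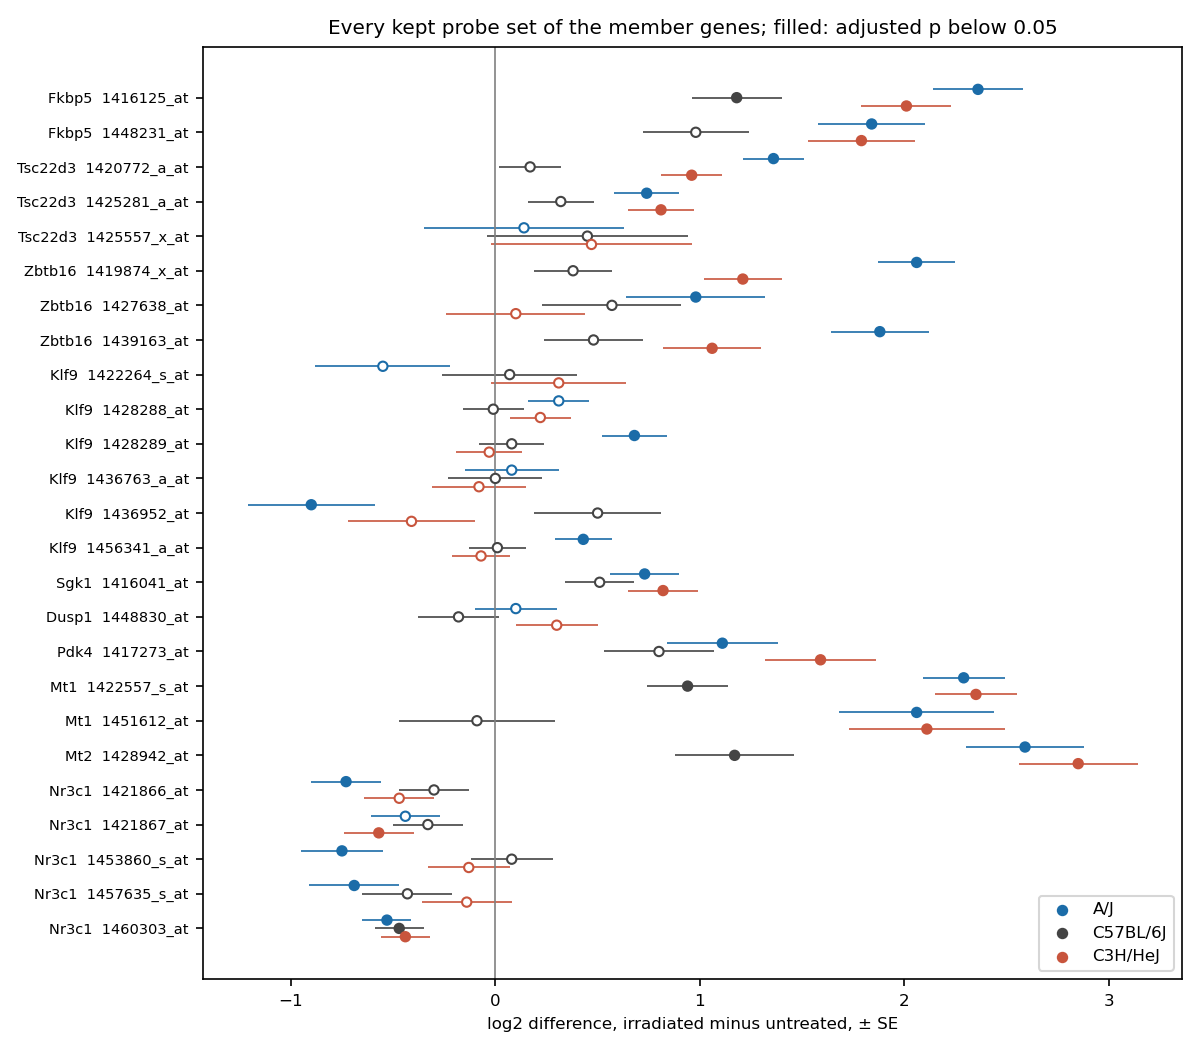
Log2 difference ± SE between irradiated and untreated lung (x axis) for each of the 25 kept probe sets of the 10 genes (y axis), by strain, with filled points for an adjusted p below 0.05 over 25746 probe sets. The sets of Fkbp5 and Zbtb16 lay above 0 in A/J and C3H/HeJ, those of Nr3c1 lay below 0 there, and those of Klf9 lay on both sides.

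Of 20 other genes of the receptor's machinery and hormone metabolism, 4 were called higher and 1 lower in A/J, 3 and 3 in C3H/HeJ, and 0 and 0 in C57BL/6J by limma (1 and 3 at an unadjusted p below 0.05). Of all genes, 15.1% were called higher and 8.95% lower in A/J, and 12.8% and 10.6% in C3H/HeJ. The median difference of the 20 genes was 0.10 in A/J, -0.10 in C3H/HeJ and -0.01 in C57BL/6J, near that of all genes (0.09, 0.01 and -0.01). Abcb1b, a drug pump that also exports steroids, rose by 1.41 ± 0.24 in A/J and by 1.22 ± 0.24 in C3H/HeJ. Nr3c2, the mineralocorticoid receptor, fell by 0.99 ± 0.20 in C3H/HeJ, and the chaperone Hsp90aa1 fell by 0.53 ± 0.11 in A/J. Of 32 other glucocorticoid-responsive genes, 13 were called higher and 2 lower in A/J, 13 and 5 in C3H/HeJ, and 2 and 1 in C57BL/6J. In C57BL/6J 2.99% of all genes were called higher and 2.36% lower. Their median difference was 0.31, 0.30 and 0.18, against 0.09, 0.01 and -0.01 over all genes. The clock gene Per1 (2.62 ± 0.16), Lcn2 (2.34 ± 0.24) and the kinase gene Map3k6 (1.55 ± 0.24) had the largest rises in A/J, while Sdc4 fell by 1.75 ± 0.21 there. In C3H/HeJ the macrophage scavenger receptor Cd163 (1.46 ± 0.32), the decoy receptor Il1r2 (1.42 ± 0.28) and the transcription factor Cebpd (1.35 ± 0.20) were among the highest. Lcn2 was called higher in all 3 strains (2.34 in A/J, 2.82 in C3H/HeJ and 1.49 in C57BL/6J) and is on the acute-phase list as well.

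The size of the irradiation effect was then compared between strains. A/J responded more than C57BL/6J in Fkbp5 (by 1.18 ± 0.31 log2, adjusted p = 0.0378), Tsc22d3 (1.18 ± 0.21, adjusted p = 0.00519), Zbtb16 (1.40 ± 0.34, adjusted p = 0.0252) and Mt1 (1.36 ± 0.27, adjusted p = 0.0103), 4 of the 10 genes higher and 0 lower (5 and 0 at an unadjusted p below 0.05), against 2.99% and 2.47% of all genes. C3H/HeJ responded more than C57BL/6J in Mt1 (1.41 ± 0.27, adjusted p = 0.0193), 1 of 10 higher and 0 lower (4 and 0 at an unadjusted p below 0.05), against 1.01% and 0.596% of all genes, or 1.6% in either direction. Mt2 missed the threshold in both (1.42 ± 0.41, adjusted p = 0.0548, and 1.68 ± 0.41, adjusted p = 0.0506). Between A/J and C3H/HeJ limma called 0 of the 10 (1 at an unadjusted p below 0.05, Zbtb16 with 0.82 ± 0.34), against 1.06% of all genes in either direction. The C57BL/6J arrays are shared by the first 2 of these comparisons, and the A/J arrays by the first and the last.

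Not all of these differences held equally. The Mt1 difference between A/J and C57BL/6J stayed called in all 22 alternatives and was 1.91 without the 3 keratin-rich arrays. The Fkbp5 call was lost in 11 of the 22, the Zbtb16 call in 7 and the Tsc22d3 call in 1, and the Mt1 call of C3H/HeJ in 3. Without the 3 keratin-rich arrays the A/J to C57BL/6J values were 1.74 for Fkbp5 (adjusted p = 0.0506), 1.20 for Tsc22d3 (0.0732) and 1.30 for Zbtb16 (0.205).

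The untreated lungs of the strains also differed, and these arrays enter the differences in effect given above. Untreated C57BL/6J lung was above untreated A/J lung in Zbtb16 (2.36 ± 0.24, 5.12-fold, adjusted p = 8.02e-06), Tsc22d3 (1.56 ± 0.15, 2.95-fold, adjusted p = 3.95e-06), Fkbp5 (1.52 ± 0.22, 2.87-fold, adjusted p = 0.000247), Mt1 (0.92 ± 0.19, 1.89-fold, adjusted p = 0.00548) and Klf9 (0.81 ± 0.15, 1.76-fold, adjusted p = 0.00171). It was below in Sgk1 (-0.61, adjusted p = 0.0295) and Dusp1 (-0.68, adjusted p = 0.038), so that 5 of 10 were higher and 2 lower, against 5.93% and 4.46% of all genes. Against untreated C3H/HeJ, C57BL/6J was higher in Klf9 (1.65 ± 0.15), Zbtb16 (1.54 ± 0.24), Tsc22d3 (1.53 ± 0.15) and Fkbp5 (1.05 ± 0.22) and lower in 0 (also 0 at an unadjusted p below 0.05), against 6.01% and 4.82% of all genes. Fkbp5, Tsc22d3, Zbtb16 and Klf9 were thus above both other strains in untreated C57BL/6J lung, as were 2.89% of all genes. Between untreated C3H/HeJ and A/J only Klf9 was called, lower in C3H/HeJ by 0.84 (adjusted p = 0.00278), and 0 were called higher (2 at an unadjusted p below 0.05), against 2.16% and 2.34% of all genes, or 4.5% in either direction. The arrays of these groups did not overlap for 7 of the 10 genes, as for 26.8% of all genes.

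Of the 32 other glucocorticoid-responsive genes, 11 were called higher and 2 lower in untreated C57BL/6J than in untreated A/J, and 7 and 2 against untreated C3H/HeJ. The shares of all genes were 5.93% and 4.46%, and 6.01% and 4.82%. Map3k6 (2.04 and 1.84), Per1 (1.80 and 1.64), Lcn2 (1.46 and 1.09) and the sulfotransferase gene Sult1a1 (1.25 and 1.15) were higher against both. Of the 20 genes of receptor machinery and hormone metabolism, 1 was called higher and 0 lower against A/J (3 and 1 at an unadjusted p below 0.05) and 0 either way against C3H/HeJ (also 0 at an unadjusted p below 0.05). Of the 21 metal handling genes, 1 was called higher and 1 lower in each of these comparisons, and of the 15 interleukin 6 and acute-phase genes 2 and 1 were called higher and 0 lower (1 and 0 at an unadjusted p below 0.05).

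The untreated differences of Fkbp5, Tsc22d3 and Zbtb16 between C57BL/6J and A/J stayed called in all 16 alternatives. Those of Sgk1 and Dusp1 were lost in 9 and 10. Without untreated C57BL/6J arrays 1 and 3, which held the keratin and muscle signal, array 2 alone gave 1.95 for Fkbp5, 1.50 for Tsc22d3, 2.25 for Zbtb16 and 1.33 for Mt1 against A/J, all still called, and 0.78 for Klf9 (adjusted p = 0.0808). Array 2 was the highest of the 3 untreated C57BL/6J arrays in Fkbp5 (7.62), Mt1 (10.02) and Mt2 (8.82).

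**Figure D3:**
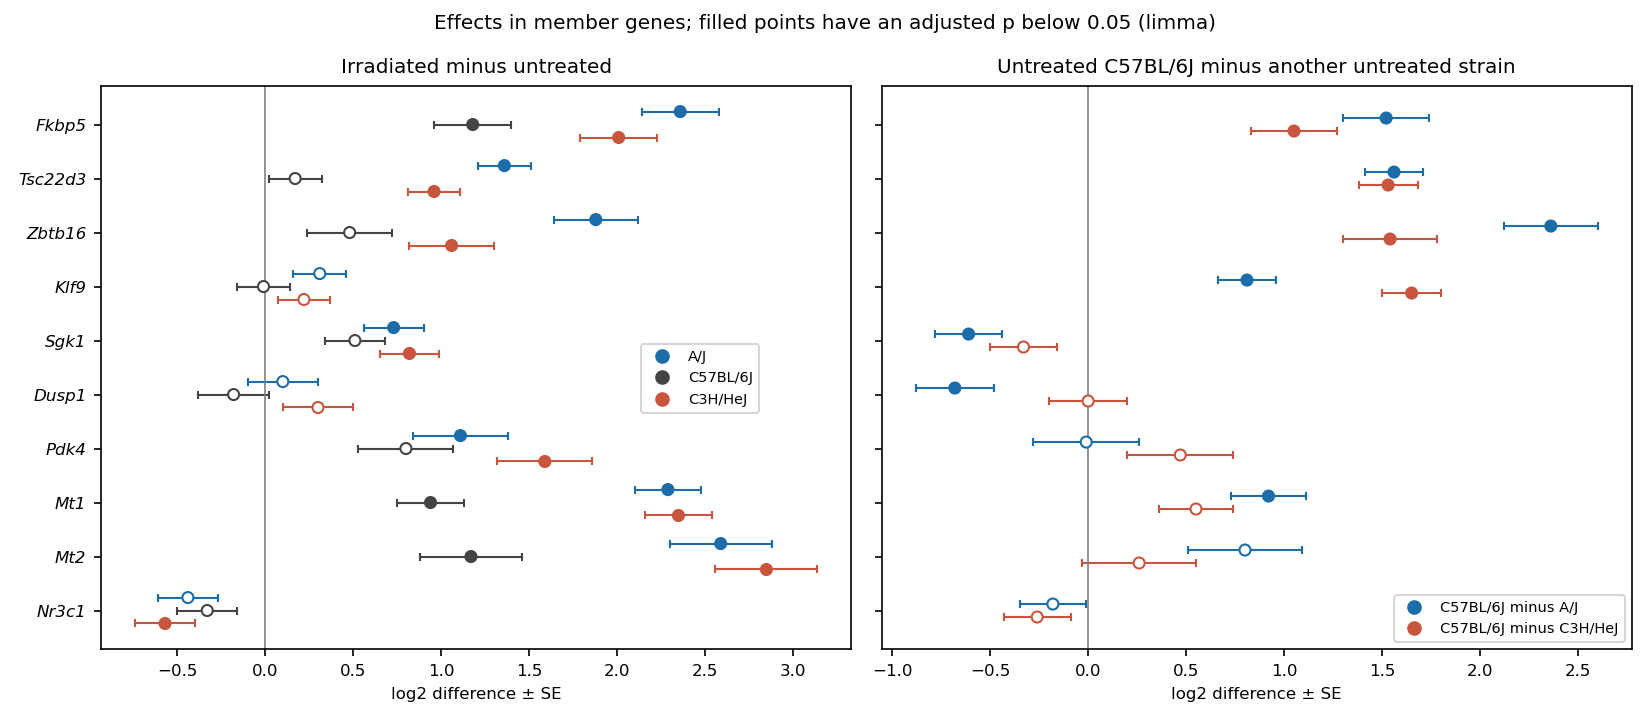
Log2 difference ± SE (x axis) of the 10 genes (y axis) between irradiated and untreated lung in each strain (left) and between untreated C57BL/6J and each other untreated strain (right), with filled points for a limma adjusted p below 0.05. Tsc22d3 and Zbtb16 were called higher after irradiation in A/J and C3H/HeJ but not in C57BL/6J (0.17 and 0.48), Klf9 was called in no strain, and all 3 were higher in untreated C57BL/6J than in untreated A/J (1.56, 2.36 and 0.81).

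Clock genes, which keep daily time in each cell and whose phase glucocorticoids help to set, also differed between the untreated strains. Of 17 measured, 11 were called higher and 4 lower in untreated C57BL/6J than in untreated A/J, and 10 and 1 against untreated C3H/HeJ. In untreated C3H/HeJ, 8 were called higher and 1 lower than in untreated A/J. Shares of all genes in these comparisons were 5.93% and 4.46%, 6.01% and 4.82%, and 2.34% and 2.16%. In the last of them Klf9 was lower (-0.84, called), while Fkbp5 (0.48), Tsc22d3 (0.02) and Zbtb16 (0.82) were not called. Dbp, a clock output gene, read 5.68, 5.45 and 5.25 in untreated A/J, 7.88, 8.23 and 7.50 in untreated C3H/HeJ and 9.76, 9.62 and 9.90 in untreated C57BL/6J. Arntl, which peaks at the opposite phase, had the reverse order, with means of 7.03 ± 0.10 (SD, n = 3), 6.26 ± 0.26 and 4.56 ± 0.47. Within a group the arrays lay close together, and the 3 untreated groups did not overlap in Dbp.

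After irradiation the strains lay closer together in Dbp. It read 8.83, 9.04 and 9.11 in irradiated A/J, 8.25, 8.42 and 8.55 in C3H/HeJ and 8.11, 8.92 and 8.76 in C57BL/6J. Dbp rose by 3.54 ± 0.20 in A/J and fell by 1.17 ± 0.20 in C57BL/6J, while in A/J Per2 rose by 2.84 ± 0.12 and in C3H/HeJ by 1.35 ± 0.12. Of the 17 genes, 11 were called higher and 3 lower in A/J, 8 and 3 in C3H/HeJ and 2 and 2 in C57BL/6J. The shares of all genes were 15.1% and 8.95%, 12.8% and 10.6%, and 2.99% and 2.36% in that order. Fkbp5, Tsc22d3, Zbtb16 and Klf9 are known to vary with time of day in several tissues. The clock genes' part in the differences of these genes, between strains and with irradiation, was not tested, and the time of day of sampling cannot be told apart from strain and treatment with these data.

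**Figure D4:**
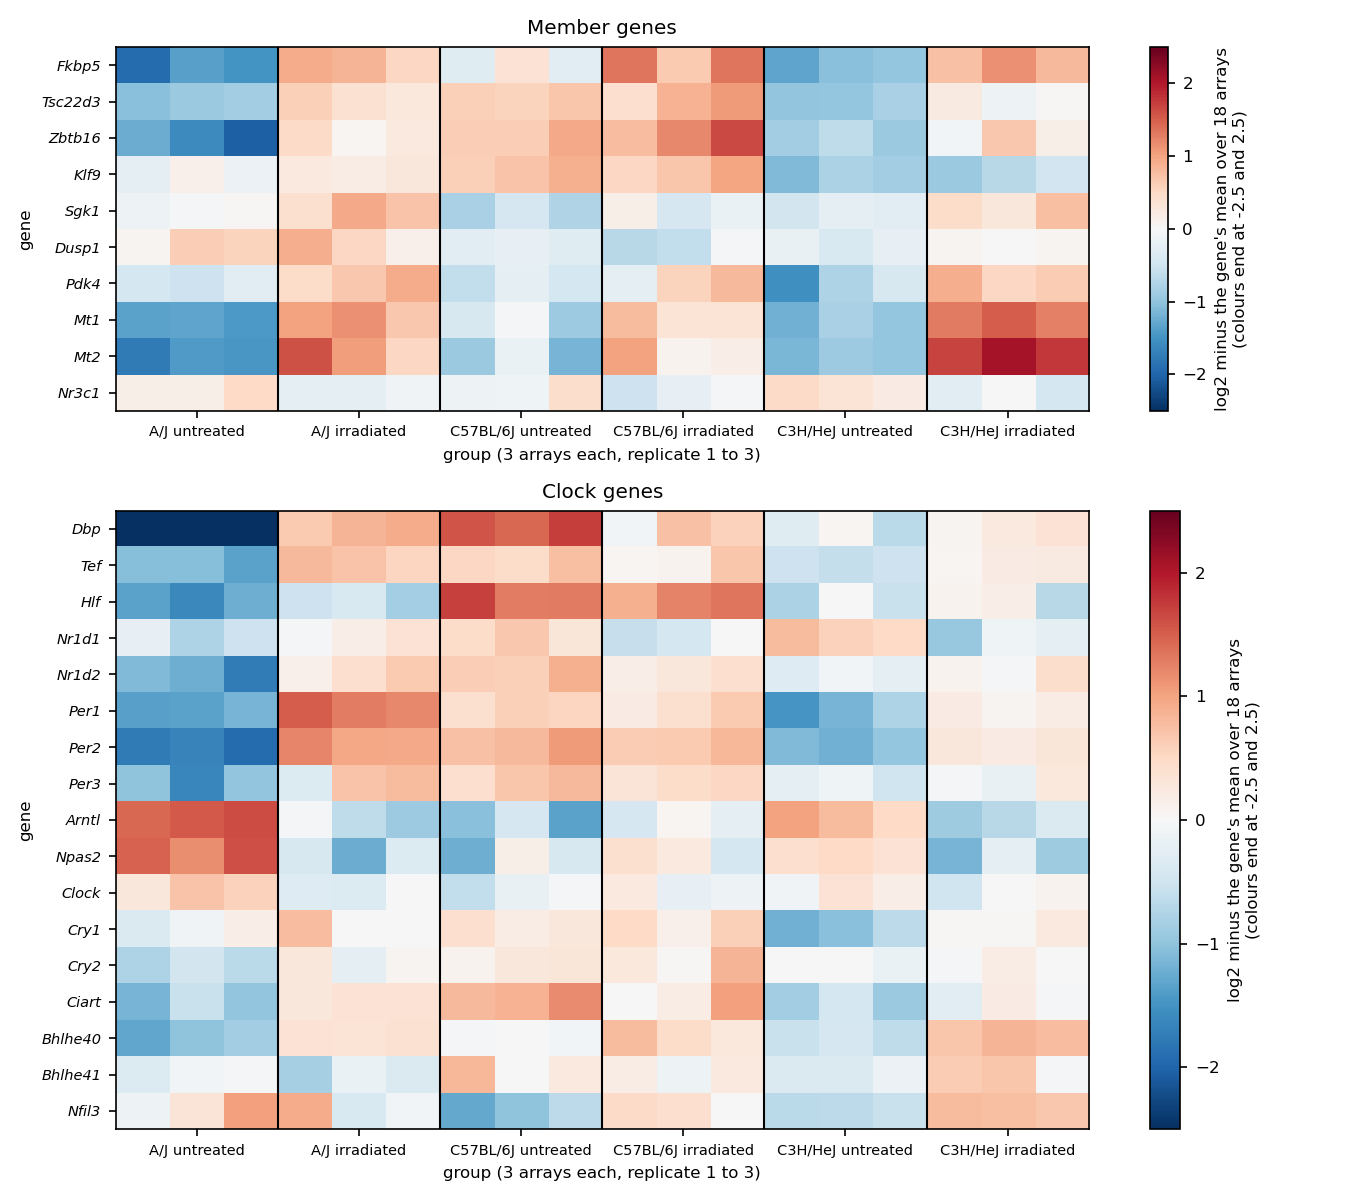
Log2 level of the 10 genes (top) and of the 17 measured clock genes (bottom) in each of the 18 arrays, minus the gene's mean over the arrays, with red for above and blue for below the mean and colours that end at -2.5 and 2.5. Untreated A/J arrays were lowest in Fkbp5, Zbtb16 and Dbp and highest in Arntl, and untreated C57BL/6J arrays (9.62 to 9.90) lay above all other arrays in Dbp.

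Among irradiated lungs the strains still differed in some of the genes. C57BL/6J was above A/J in Zbtb16 (0.95, adjusted p = 0.0111) and Klf9 (0.49, adjusted p = 0.027) and below it in Sgk1 (-0.83, adjusted p = 0.00306) and Dusp1 (-0.96, adjusted p = 0.00327), which is 2 of 10 higher and 2 lower against 7.44% and 12% of all genes. The order of Klf9 and also that of the uncalled Fkbp5 and Tsc22d3 turned without scaling (-0.08, -0.31 and -0.22), where the median of all genes was -0.64. Against C3H/HeJ it was above in Klf9 (1.42), Zbtb16 (0.96) and Tsc22d3 (0.75) and below in Mt2 (-1.42, adjusted p = 0.00321), Mt1 (-0.86, adjusted p = 0.00632) and Sgk1 (-0.64, adjusted p = 0.0163), 3 of 10 in each direction against 8.53% and 9.5% of all genes. C3H/HeJ differed from A/J in Klf9 only, which was 0.93 lower (adjusted p = 0.00144, 0 called higher with 2 at an unadjusted p below 0.05), against 4.38% of all genes higher and 6.85% lower.

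Whole lung holds many cell types, and fewer cells of a type and less RNA per cell cannot be told apart in it. The summed signal of 11 measured macrophage markers was 9400 to 9650 in untreated and 10600 to 15500 in irradiated A/J, 11400 to 12200 and 11800 to 17300 in C57BL/6J, and 10200 to 10800 and 12400 to 14200 in C3H/HeJ, with 9, 3 and 8 of the 11 called higher in the 3 strains and 0 lower in each (also 0 at an unadjusted p below 0.05). The summed signal of 12 endothelial markers went the other way. It went from 13200 to 14700 untreated down to 7310 to 9770 irradiated in A/J. In C57BL/6J it went from 12000 to 13000 down to 7120 to 9910, and in C3H/HeJ from 14700 to 15700 down to 6340 to 7250. Of these 12 markers, 2 were called higher and 5 lower in A/J. In C57BL/6J 0 were called higher and 3 lower (0 and 5 at an unadjusted p below 0.05), and in C3H/HeJ 0 and 9 (0 and 10). The sum of 11 fibroblast markers went from 7480 to 7850 up to 12100 to 12800 in A/J and from 8550 to 8940 up to 13300 to 14300 in C3H/HeJ. It overlapped in C57BL/6J (7020 to 8600 and 8110 to 10600). Of these 11 markers, 4 were called higher and 0 lower in A/J (6 and 0 at an unadjusted p below 0.05) and 4 and 1 in C3H/HeJ. In C57BL/6J 2 were called higher and 0 lower (5 and 1). Beside these marker counts, the shares of all genes called higher and lower were 15.1% and 8.95% in A/J. They were 12.8% and 10.6% in C3H/HeJ and 2.99% and 2.36% in C57BL/6J. Between untreated strains, the endothelial sums of C57BL/6J lay below those of both other strains without overlap, and its macrophage sums lay above theirs. Bright markers weigh most in such sums. Of the macrophage markers, 1 was called higher and 0 lower in each comparison, with median differences of -0.00 (A/J) and -0.01 (C3H/HeJ). Of the endothelial markers, 1 was called higher and 0 lower against A/J (1 and 4 at an unadjusted p below 0.05). Against C3H/HeJ 0 were called either way (0 and 4), with a median of -0.35 in both. Over all genes, 5.93% were called higher and 4.46% lower against A/J, and 6.01% and 4.82% against C3H/HeJ. The sum of 9 neutrophil markers was also highest in untreated C57BL/6J (3210 to 3970), against 2330 to 2750 in A/J and 1600 to 2230 in C3H/HeJ. After irradiation it was 2790 to 3700 in C57BL/6J, 1140 to 3190 in A/J and 3060 to 3500 in C3H/HeJ, where alone the groups did not overlap. The part of these markers in the differences of the 10 genes was not tested.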

How the data were processed

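RNA of whole lung homogenates from 18 samples in 6 groups was hybridised to single-colour arrays. The authors deposited linear MAS5 signal intensity values (MAS5 per the submitters' processing notes, with no version given), and how arrays were scaled to each other is not given in the sources used here. Of 45101 deposited probe sets, 64 controls were left out. The deposited intensity values were turned into log2(signal + 7), 7 being the rounded 25th percentile of all signals (6.7), and quantile-normalized between arrays. Adding 7 understates the change of dim probe sets. Probe sets above the overall median in at least 3 arrays were kept (25746), and each of the 12412 genes with a probe set naming it alone was represented by its set of highest mean. The platform annotation holds 35890 probe sets, of which 34958 name 1 gene and 932 several.

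A fit of 6 group means with limma 3.58.1 in R 4.3.3 (12 residual degrees of freedom) gave moderated two-sided tests of 12 comparisons, with Benjamini-Hochberg adjustment over all genes and a threshold of 0.05. It was tested on simulated data with known changes. Errors of differences are standard errors of this fit, and those of group means are SD. Precision is limited by 3 arrays per group.

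The members and the gene lists were chosen with earlier results of these data known. All 10 genes are described, and of each pathway list at most 4 called genes with the largest change. Nearest profiles are the 3 genes of lowest root mean square difference. Replicate numbers did not pair samples: the correlation of deviations between groups was -0.08 to 0.10. Alternatives were no scaling, median centring, pseudocounts of 1 and 32, no filter, every kept probe set, a replicate block, an intensity trend, only the groups compared, each array left out, and the 3 keratin-rich arrays left out.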

Additional observations from a re-analysis of the deposited data

Results flagged for a closer look

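For 5 results the irradiation effect differed between strains by the limma test of that difference, with 3 arrays in each of the 4 groups behind a value. Between A/J and C57BL/6J these were Fkbp5 (1.18 larger in A/J on the log2 scale), Tsc22d3 (1.18), Zbtb16 (1.40) and Mt1 (1.36). Between C3H/HeJ and C57BL/6J it was Mt1 (1.41 larger in C3H/HeJ). All of these genes but Mt1 in C3H/HeJ also had a higher untreated level in C57BL/6J that passed the test, so that a strain's starting level and the size of its change are not separate measurements here. The Fkbp5 difference lost its call in 11 of 22 alternatives, the Zbtb16 difference in 7, the Tsc22d3 difference in 1 and the Mt1 difference of C3H/HeJ in 3, while the Mt1 difference between A/J and C57BL/6J kept it in all 22.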

How the results depend on the processing

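Effects of irradiation were recomputed under 16 alternatives and differences between strains' effects under 22. The 7 genes called higher in A/J and the 7 in C3H/HeJ kept their calls in all 16, whereas in C57BL/6J Fkbp5 lost its call in 2, Mt1 in 5 and Mt2 in 7. Over the values of the 10 genes, 1898 values kept direction and side of the threshold, 85 fell below it, 50 passed it, and 67 changed sign. The causes of changed calls were not tested.

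Without scaling, Nr3c1 was 0.16 in A/J and in C3H/HeJ, and its difference in effect was 0.42 against C57BL/6J for both strains. Klf9 was 0.09 in C57BL/6J, and -0.07 in the difference of A/J from C3H/HeJ. Between untreated strains, C57BL/6J minus C3H/HeJ was 0.29 for Dusp1 and 0.03 for Nr3c1, and C3H/HeJ minus A/J was -0.40 for Tsc22d3, -0.05 for Mt1 and -0.32 for Nr3c1. Between irradiated strains, C57BL/6J minus A/J was -0.31 for Fkbp5, -0.22 for Tsc22d3 and -0.08 for Klf9, and Fkbp5 was -0.14 for C57BL/6J minus C3H/HeJ and -0.17 for C3H/HeJ minus A/J. Counts over all genes without scaling were 220 in C57BL/6J (664 in the reported setting), 251 and 36 for the differences of A/J from C57BL/6J (677) and from C3H/HeJ (132), 384, 447 and 251 for untreated C57BL/6J minus A/J (1289), C57BL/6J minus C3H/HeJ (1344) and C3H/HeJ minus A/J (558), and 622 and 395 for irradiated C57BL/6J minus C3H/HeJ (2238) and C3H/HeJ minus A/J (1394). Of the 10 genes, 3 were called for untreated C57BL/6J minus A/J, 3 for irradiated C57BL/6J minus C3H/HeJ, and 2 for the difference of C3H/HeJ from C57BL/6J.

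With median centring, Klf9 was 0.04 in C57BL/6J, and the Nr3c1 difference in effect from C57BL/6J was 0.24 for A/J and 0.09 for C3H/HeJ. Untreated C57BL/6J minus C3H/HeJ was 0.10 for Dusp1, untreated C3H/HeJ minus A/J was -0.11 for Tsc22d3 and -0.03 for Nr3c1, and Fkbp5 was -0.03 for irradiated C57BL/6J minus A/J and for irradiated C3H/HeJ minus A/J. Counts over all genes were 4698 in A/J (2986), 342 in C57BL/6J, 70 for the difference of A/J from C3H/HeJ, 812 and 353 for untreated C57BL/6J minus C3H/HeJ and C3H/HeJ minus A/J, and 5174 for irradiated C57BL/6J minus A/J (2414), and 3 of the 10 were called for the difference of C3H/HeJ from C57BL/6J. Scaling moved the split of higher to lower calls, from 1875 and 1111 to 2312 and 144 without scaling and 4162 and 536 with centring in A/J, and from 1594 and 1321 to 3195 and 71 and to 3015 and 461 in C3H/HeJ. For the differences in effect the split went from 371 and 306 to 224 and 27 and to 767 and 181 (A/J from C57BL/6J), from 125 and 74 to 210 and 9 and to 209 and 29 (C3H/HeJ from C57BL/6J), and from 63 and 69 to 11 and 25 and to 25 and 45 (A/J from C3H/HeJ). Between untreated strains it went from 746 and 598 to 383 and 64 and to 562 and 250 (C57BL/6J minus C3H/HeJ) and from 290 and 268 to 36 and 215 and to 139 and 214 (C3H/HeJ minus A/J). Between irradiated strains it went from 923 and 1491 to 187 and 3168 and to 544 and 4630 (C57BL/6J minus A/J), from 1059 and 1179 to 121 and 501 and to 528 and 1752 (C57BL/6J minus C3H/HeJ), and from 544 and 850 to 88 and 307 and to 388 and 1150 (C3H/HeJ minus A/J).

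Without the 3 keratin-rich arrays, Klf9 was 0.02 in C57BL/6J, the difference of A/J from C3H/HeJ was 0.08 for Mt1 and 0.01 for Mt2, Pdk4 was 0.18 for untreated C57BL/6J minus A/J and 0.12 for irradiated C3H/HeJ minus A/J, Dusp1 was 0.06 for untreated C57BL/6J minus C3H/HeJ, and Fkbp5 was -0.00 for irradiated C3H/HeJ minus A/J. Counts over all genes were 32 in C57BL/6J, 87, 18 and 65 for the differences of A/J from C57BL/6J, C3H/HeJ from C57BL/6J (199) and A/J from C3H/HeJ, and 404 and 420 for untreated C57BL/6J against A/J and C3H/HeJ. Of the 10 genes, limma called 0 in C57BL/6J (2 at an unadjusted p below 0.05) and 2 in the differences of A/J and of C3H/HeJ from C57BL/6J.

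The fit on only the groups compared gave 79 genes and 0 of the 10 in C57BL/6J by limma (5 at an unadjusted p below 0.05), 446 for the difference of A/J from C57BL/6J, 1068 genes and 2 of the 10 for irradiated C57BL/6J minus A/J, and 187 for irradiated C3H/HeJ minus A/J. With no filter the counts were 408 in C57BL/6J and 440, 99 and 47 for the differences in effect in the order above. Testing every kept probe set gave 128 for the difference of C3H/HeJ from C57BL/6J. With a pseudocount of 32 that difference had 323 genes and 3 of the 10, A/J from C3H/HeJ had 244, and untreated C3H/HeJ minus A/J had 2 of the 10. With the intensity trend these were 3 of the 10, 247 genes and 3 of the 10.

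Leaving out each array in turn gave ranges. For effects, Dusp1 in A/J was -0.10 to 0.29 and Klf9 in C57BL/6J -0.13 to 0.10, with 219 to 731 genes and 1 to 3 of the 10 called in C57BL/6J. For A/J from C57BL/6J, 350 to 714 genes and 2 to 5 of the 10 were called, with Nr3c1 at -0.30 to -0.00 and Pdk4 at -0.01 to 0.52. For C3H/HeJ from C57BL/6J, 82 to 371 genes and 0 to 2 of the 10 were called, and the 0 by limma came without irradiated C3H/HeJ array 2 and without untreated C3H/HeJ array 1 (4 at an unadjusted p below 0.05 each). For A/J from C3H/HeJ, 33 to 199 genes were called, with Sgk1 at -0.21 to 0.05, Mt1 at -0.15 to 0.08, Mt2 at -0.53 to 0.01 and Klf9 at -0.03 to 0.20. For untreated C57BL/6J minus A/J, 853 to 1146 genes were called, with Pdk4 at -0.11 to 0.08. For untreated C57BL/6J minus C3H/HeJ, 891 to 1082 were called, with Dusp1 at -0.07 to 0.03 and Mt2 at -0.04 to 0.47. For untreated C3H/HeJ minus A/J, 328 to 451 genes and 1 to 3 of the 10 were called, with Tsc22d3 at -0.03 to 0.07. For irradiated C57BL/6J minus A/J, 2 to 6 of the 10 were called, with Nr3c1 at -0.18 to 0.06. For irradiated C57BL/6J minus C3H/HeJ, 1386 to 2186 genes were called, with Pdk4 at -0.53 to 0.00 and Nr3c1 at -0.13 to 0.12. For irradiated C3H/HeJ minus A/J, 468 to 1522 genes and 1 to 2 of the 10 were called, with Zbtb16 at -0.22 to 0.15, Fkbp5 at -0.00 to 0.20, Pdk4 at -0.12 to 0.12 and Nr3c1 at -0.17 to 0.04.

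The replicate number as a block in the limma fit, where the numbers did not pair the samples, ended 1 call of the 10 genes: Dusp1 between untreated C57BL/6J and A/J had -0.68 with an adjusted p of 0.0583. Dim probe sets near the pseudocount, such as the second Mt1 set, limit what can be said of low levels.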

Other observations

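The summed signal of mast cell markers, which enter none of the comparisons above, went different ways in the 3 strains. Of the 10 markers measured, 7 were called higher and 1 lower in A/J and 7 and 2 in C3H/HeJ. In C57BL/6J 1 was called higher and 1 lower (4 and 2 at an unadjusted p below 0.05). The shares of all genes were 15.1% and 8.95% in A/J, 12.8% and 10.6% in C3H/HeJ and 2.99% and 2.36% in C57BL/6J. Their median difference was 3.02 in A/J, 2.28 in C3H/HeJ and 0.49 in C57BL/6J, where the median thus did not fall with the sum. Their summed signal was 1200 to 1350 in untreated and 1960 to 3080 in irradiated A/J lung, 928 to 1010 and 1080 to 1880 in C3H/HeJ, and 951 to 1020 and 728 to 777 in C57BL/6J, so that the irradiated sums were higher in the former strains and lower in C57BL/6J, without overlap in any.

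The summed signal of T and NK cell markers was 665 to 699 in untreated and 285 to 401 in irradiated A/J lung, and 502 to 694 and 326 to 487 in C3H/HeJ, without overlap. In C57BL/6J it was 535 to 1020 untreated and 638 to 690 irradiated, which overlapped. Of the 10 measured markers, limma called 5 lower in A/J, 2 in C3H/HeJ and 0 in C57BL/6J (2 at an unadjusted p below 0.05). It called 0 higher in each (0, 1 and 3 at an unadjusted p below 0.05). Over all genes, 8.95%, 10.6% and 2.36% were called lower and 15.1%, 12.8% and 2.99% higher in that order of strains.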
